A study of Homo sapiens with 32 samples.

Results

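The 10 genes described here encode the keratins of the basal and of the luminal mammary epithelial cell: KRT5, KRT14, KRT15, KRT6A, KRT6B and KRT17 as the basal set and KRT7, KRT8, KRT18 and KRT19 as the luminal set. They were chosen by symbol and not by a cutoff on measured values, although earlier results of these data were known at that time. All 10 were found among the 17788 genes of the count table, and all 10 passed the filter on low counts. RNA-seq was done on 32 cultures of MCF10A, an immortalized, non-tumorigenic human mammary epithelial cell line. Clones 27 and 2 carried wild-type JUNB (WT), and clones 1 and 65, labelled JUNB KO and called JUNB mut here, carried CRISPR/Cas9 deletions in JUNB, an AP-1 transcription factor subunit. Cultures of every clone received TGFβ1 (5 ng/ml) for 6 h, 24 h or 72 h, or the solvent alone. With 2 replications per clone there were 8 groups, each with 4 libraries. Control plates, which the labels give as 0 h, received solvent for 72 h, and every plate was harvested 3 days after seeding. Each clone was grown from a single cell, each genotype is represented by 2 clones only. At low level, the mut clones also showed a smaller band with the JUNB antibody, which may be a JUNB derivative. A series is 1 clone in 1 replication, written as 27-1 or 65-2, and values are given below in the order 27-1, 2-1, 27-2 and 2-2 for WT and 1-1, 65-1, 1-2 and 65-2 for mut.

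Keratins are the intermediate filament proteins of epithelial cells. A filament is built from pairs of an acidic type I and a basic type II chain, so a cell needs at least 1 keratin of each type, and desmosomes and hemidesmosomes anchor the filaments at the cell membrane. In the breast, KRT5 (type II) and its partners KRT14 and KRT15 (type I) mark the basal, myoepithelial layer, KRT6A, KRT6B (type II) and KRT17 (type I) are the keratins that basal epithelia make in wounds and under stress, and KRT7 and KRT8 (type II) with KRT18 and KRT19 (type I) are the keratins of simple and luminal epithelium. TGFβ1 drives epithelial cells towards a mesenchymal state, a transition in which epithelial filaments are known to be remodelled.

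The type II members lie together on chromosome 12 and the type I members, apart from KRT18, on chromosome 17 (GENCODE, GRCh38). KRT5 spans chr12:52514575-52520530 on the minus strand, and KRT14 spans chr17:41582279-41586895 on the minus strand. KRT8 (chr12:52897187-52949954, minus strand) and KRT18 (chr12:52948871-52952906, plus strand) overlap at their starts, and KRT7 (chr12:52232520-52252186, plus strand) overlaps the hair keratin gene KRT86 on the same strand. The promoter windows in hand, which span the RefSeq start, covered KRT5 and KRT8 of the 10 genes. The site below is shown because SNAI and ZEB proteins, the repressors of epithelial genes that TGFβ1 induces, bind E-boxes of this kind. It holds the 1 match of CAGGTG in the KRT5 window, in capitals, 130 bases before the RefSeq start (RefSeq, GRCh38.p14, chr12:52520507-52520536, minus strand, 5′ to 3′).
KRT5 promoter site: cacaccactgtgCAGGTGtgaccggtgagc
The GENCODE span of KRT5 begins, on the minus strand, at 52520530, so by that annotation the letters in capitals lie inside the gene. On both strands, CAGGTG was found in 20.6% of the 35116 promoter windows of that length. Neither window held the AP-1 letters TGANTCA (7.71% of all windows), TATAAA (11.5%) or CCAAT (34.6%), and the KRT8 window held no CAGGTG. The KRT8 window (chr12:52926420-52926719, minus strand) lay inside the GENCODE span of KRT8, away from the start that overlaps KRT18. It therefore does not describe the sequence at that start. A match of letters is a description of the window and says nothing of binding in these cells.

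Related genes limit how exactly reads can be assigned. Of all 50 bp stretches of the transcript, 39.2% for KRT6A and 46.6% for KRT6B were also found in other keratin genes or pseudogenes. These were above all KRT6C and each other, and genes outside the keratin family were not searched. At the 150 bp of 1 read, these shares were 9.26% and 12.7%. KRT14 shared 21.7% at 50 bp, mostly with KRT16, and 0.605% at 150 bp. KRT8 (39.0%) and KRT18 (35.3%) shared 50 bp stretches with processed pseudogenes, and neither shared a stretch of 150 bp. Levels of KRT6A and KRT6B are therefore the least certain of the 10. The library kit kept no strand, so reads from the overlap of KRT8 and KRT18 could not be told apart by strand.

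The 32 libraries held 39702412 to 54651906 counts each. Of the epithelial markers EPCAM, CDH1, ITGA6 and TP63, all 4 were in the table. Their summed level was 1272 to 1474 CPM (counts scaled to the library total) in WT solvent and 1599 to 1725 CPM in WT 72 h. ITGA6 alone made up 896 ± 157 and 1330 ± 85.2 CPM of it, whereas the means of EPCAM, CDH1 and TP63 were lower at 72 h. TP63 was at 97.5 ± 11.4 and 79.3 ± 12.8 CPM, a difference not called by limma-voom. The summed level of 6 fibroblast markers was 15.2 to 21.8 CPM in WT solvent and 37.7 to 59.1 CPM in WT 72 h, of which COL1A1, a collagen gene, made up 8.32 ± 1.99 and 42.4 ± 10.9 CPM. In mut the epithelial sum was 1214 to 1388 CPM in solvent and 1179 to 1359 CPM at 72 h, and the fibroblast sum 15.1 to 24.9 and 42.8 to 52.8 CPM. DCN, a fibroblast proteoglycan gene, made up 29.4 ± 3.24 CPM and COL1A1 17.4 ± 0.953 CPM of the mut 72 h sum. At 24 h the fibroblast sum was 66.6 to 90.2 CPM in WT and 33.5 to 47.25 CPM in mut. COL3A1, THY1 and the defining leukocyte genes PTPRC and CD3E had means of at most 0.0307 CPM in solvent and at 72 h. VWF, the endothelial marker in the table, reached 0.140 CPM at most in any library. CD14, the remaining leukocyte marker, fell by 2.31 in WT at 72 h (adjusted p = 6.02e-07, limma-voom), and ESR1, of hormone-receptor luminal cells, was at 0.858 ± 0.317 CPM in WT solvent. EPCAM fell by 1.66 (1.02e-06) and CDH1 by 0.65 (0.0303, and 0.103 with TMM scaling, a normalization for RNA composition), while ITGA6 rose by 0.58 (3.46e-05). In mut at 72 h, EPCAM fell by 0.97 (0.00031), CDH1 by 0.77 (0.0244) and CD14 by 1.47 (4.79e-06), and ITGA6 (0.42, 0.00321), COL1A1 (1.93, 4.1e-05) and DCN (0.98, 0.00493) rose. TP63 was called lower there too, from 123.5 ± 13.4 to 88.05 ± 12.8 CPM. The part of these markers in the keratin values was not tested. JUNB itself was counted at 89.7 to 117 CPM in WT solvent and 69.2 to 172 CPM in mut solvent, so that its count did not check the genotype labels, since a deletion inside the gene need not remove its reads. Series 27-2 was below the other WT series in solvent for KRT5, KRT14 and KRT15, and series 1-2 was above the other mut series at 24 h for KRT15. In bulk RNA, fewer cells with a keratin and less of its RNA per cell cannot be told apart.

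In WT solvent cells the basal keratin KRT5 was the most abundant of the 10 per length of transcript. Its level was 1515 ± 168 CPM per kb of exon (SD, n = 4, as for all levels below). KRT6A followed at 752 ± 136, KRT7 at 635 ± 137 and KRT17 at 453 ± 116 CPM per kb. Of these, KRT6A and KRT7, and KRT7 and KRT17, had overlapping values over libraries, whereas KRT5 stood above all others. KRT14, at 161 ± 56.5 CPM per kb, and KRT15, at 95.7 ± 49.5, overlapped each other, as KRT15 did with KRT18 at 49.2 ± 3.07. KRT6B (24.7 ± 7.51 CPM per kb) and KRT8 (15.8 ± 2.47) overlapped at the low end. KRT19, a marker of luminal cells, was at 0.0470 ± 0.0183 CPM per kb. With the length of the longest transcript in place of all exons, KRT7 (1562 CPM per kb) moved above KRT6A (954), so their order rests on the gene model.

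**Figure D1:**
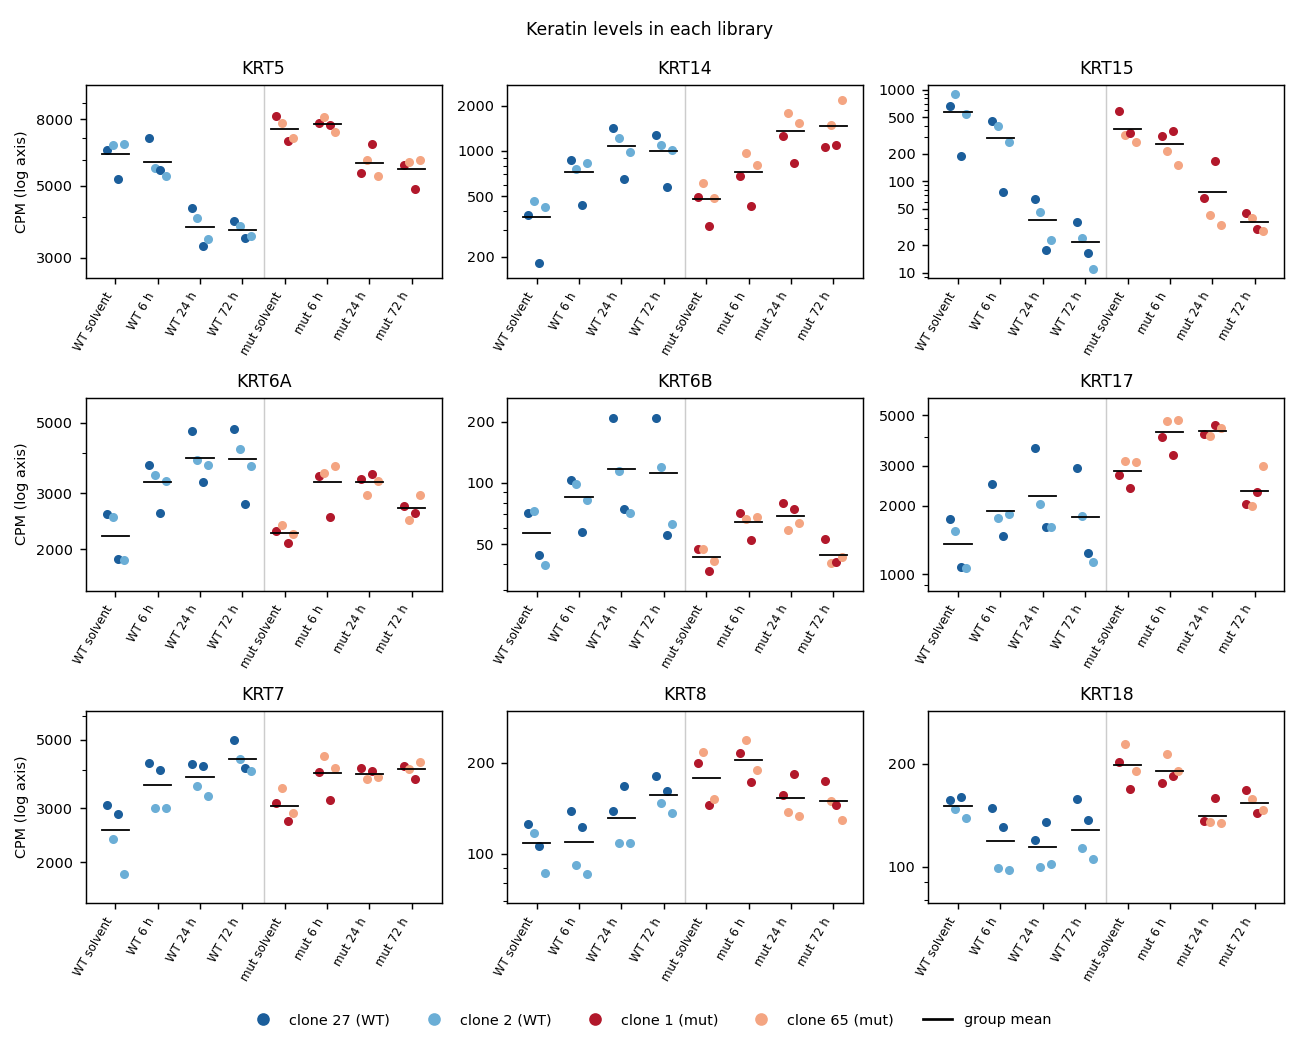
Level of 9 keratin genes in each of the 32 libraries, in CPM on a log axis, by group, with 1 point per library coloured by clone and a bar at the mean of the 4 libraries. KRT15 falls from 188 to 898 CPM in solvent to 11.1 to 44.9 CPM at 72 h, whereas KRT14 lies above its solvent libraries at 24 h and 72 h in both genotypes.

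TGFβ1 moved the basal keratins apart from each other rather than together. In WT cells at 72 h, KRT14, KRT6A and KRT6B of the basal set and KRT7 and KRT8 of the luminal set rose, while KRT5 and KRT15 fell. Changes are log2 ratios fitted by limma-voom to all 32 libraries, with their SE and a p adjusted by Benjamini-Hochberg over the 14865 genes tested, and were called at an adjusted p under 0.05. In WT at 72 h, 5 of the 10 genes were called higher and 2 lower, where 13.9% of all genes tested were called higher and 38.4% lower. At 24 h in WT, 5 were higher and 3 lower, against 14.1% and 38% of all genes. At 6 h in WT, 3 were higher and 1 lower, against 5.13% and 11.9%.

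In mut cells fewer members passed the test. At 72 h, 2 were higher (KRT14 and KRT7) and 3 lower (KRT5, KRT15 and KRT18), against 7.81% and 16.3% of all genes. At 24 h, 3 were higher and 3 lower, against 6.75% and 17.1%. At 6 h, only KRT6A of the 10 was higher and none was lower by limma-voom, against 2.06% and 4.94%. At an unadjusted p under 0.05, 3 were higher and none lower there. Since the same series was followed over all times, each change was also fitted with the series as a replicate block. With the block, 7 members instead of 4 passed in WT at 6 h, 5 higher and 2 lower, where that fit called 7.78% of all genes higher and 18.1% lower. In mut at 6 h, 5 instead of 1 passed, all higher, against 4.92% higher and 11.6% lower. In mut at 72 h, 8 instead of 5 passed, 3 higher and 5 lower, against 11% and 22.9%. Of the TGFβ1 changes that passed with the block only, KRT6B in mut at 24 h (adjusted p = 0.0466) and KRT6A in mut at 72 h (0.0478) passed with the replications of a clone summed, and the others were at 0.052 to 0.358.

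Under the scaling by library total, the median of all genes tested shifted by -0.18 on the log2 scale in WT at 24 h and by -0.19 at 72 h. Values relative to that median are therefore also given for WT at 72 h. There, KRT14 was at 1.67, KRT6A at 0.98, KRT6B at 0.99, KRT17 at 0.51, KRT7 at 0.99, KRT8 at 0.72, KRT18 at -0.06, KRT5 at -0.58 and KRT15 at -4.45. KRT18 was thus the member nearest to that median.

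**Figure D2:**
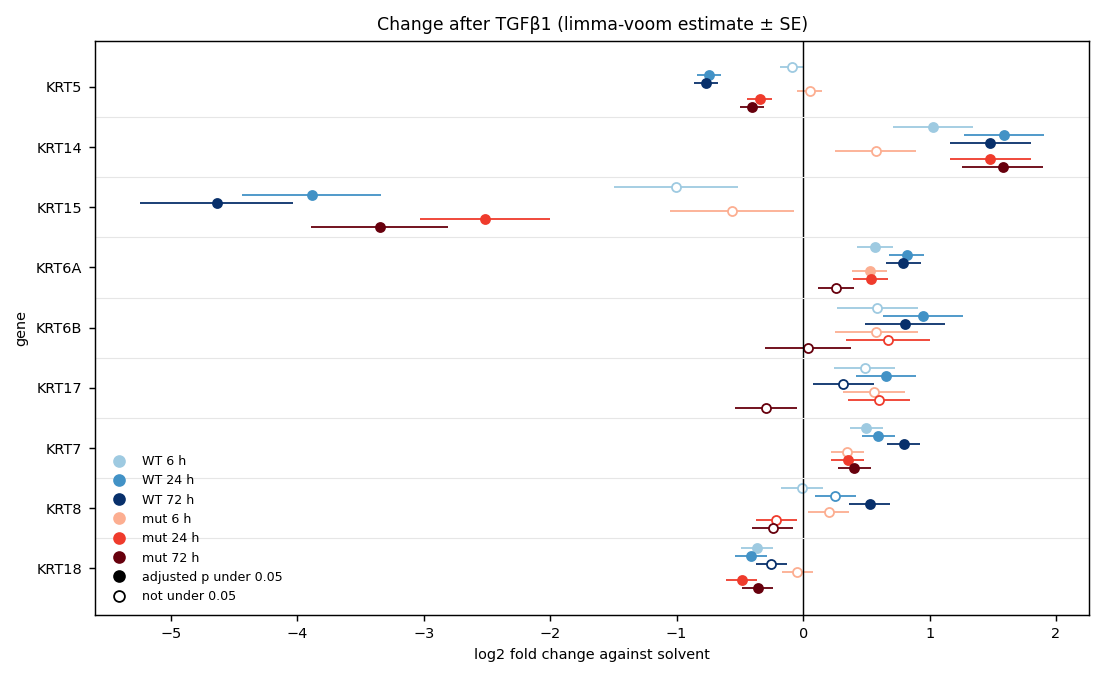
Log2 fold change of 9 keratin genes after 6 h, 24 h and 72 h of TGFβ1 against solvent, for WT and mut, with error bars of 1 SE, where a filled symbol marks an adjusted p under 0.05. KRT15 reaches -4.64 in WT and -3.35 in mut at 72 h, and KRT14 1.48 and 1.58.

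KRT5, the main type II keratin of basal cells, fell in both genotypes from 24 h on. Its level in WT solvent was 6452, 6662, 5234 and 6697 CPM, and in WT 72 h it was 3902, 3749, 3452 and 3510 CPM. In mut solvent it was 8158, 7814, 6843 and 7030 CPM, and in mut 72 h 5774, 5894, 4880 and 5988 CPM. Within each genotype all 4 libraries at 24 h and at 72 h were below all solvent libraries. In WT the log2 change was -0.09 ± 0.10 at 6 h (adjusted p = 0.613), -0.75 ± 0.10 at 24 h (1.98e-07) and -0.77 ± 0.10 at 72 h (1.42e-07). The mut change was -0.34 ± 0.10 at 24 h (adjusted p = 0.0103) and -0.41 ± 0.10 at 72 h (0.00269). With TMM scaling the mut 24 h change no longer passed (adjusted p = 0.0512), nor did it by edgeR, whereas DESeq2 kept the call. Mut series 1-2 changed by -0.03 only at 24 h. Without series 27-2, the WT change at 72 h was -0.83 (2.32e-07).

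KRT14, the type I partner of KRT5, moved in the other direction. Its level was 376, 469, 181 and 429 CPM in WT solvent and 1276, 1099, 580 and 1020 CPM in WT 72 h. Mut cells had 496, 615, 321 and 488 CPM with solvent and 1055, 1475, 1103 and 2189 CPM at 72 h. Every library at 24 h and at 72 h lay above every solvent library of its genotype, and series 27-2 was the lowest WT series at each time. The log2 change was 1.03 ± 0.32 in WT at 6 h (adjusted p = 0.0239), 1.59 ± 0.32 at 24 h (0.000124) and 1.48 ± 0.32 at 72 h (3e-04). In mut it was 0.57 ± 0.32 at 6 h, which did not pass (adjusted p = 0.289) but passed with the replicate block (0.00275), 1.48 ± 0.32 at 24 h (0.00137) and 1.58 ± 0.32 at 72 h (0.000568). The WT 6 h call was lost on leaving out WT solvent 27-2 or WT 6 h 27-1, 2-1 or 2-2 (adjusted p = 0.0559 to 0.116) and with the replications of a clone summed (0.0516), but not without the whole of series 27-2 (0.0191).

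KRT15, a type I keratin of basal cells and of epithelial progenitors, showed the largest change of the 10. Its level in WT was 658, 898, 188 and 542 CPM with solvent, 448, 400, 76.6 and 269 CPM at 6 h, 64.3, 46.3, 17.6 and 22.6 CPM at 24 h and 35.6, 23.8, 16.6 and 11.1 CPM at 72 h. It thus went down at each later time in every WT series. The mut libraries were at 580, 317, 335 and 266 CPM with solvent, 310, 212, 350 and 149 CPM at 6 h, 64.8, 42.4, 165 and 33.3 CPM at 24 h and 44.9, 39.6, 29.8 and 28.8 CPM at 72 h. In mut at 24 h, series 1-2 lay far above the other 3. The log2 change in WT was -3.89 ± 0.55 at 24 h (adjusted p = 9.89e-07) and -4.64 ± 0.61 at 72 h (3.46e-07), the latter a level of 0.0402 times that of solvent. Without series 27-2, the WT values were -4.04 and -5.01. The mut change was -2.52 ± 0.51 at 24 h (0.000747), or -3.01 without series 1-2 (0.000896), and -3.35 ± 0.54 at 72 h (3.48e-05). At 6 h the WT level, 0.499 times that of solvent, did not pass (adjusted p = 0.17), but it passed with the replicate block (0.00358) and, at -1.47, on leaving out WT solvent 27-2 (0.036).

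KRT6A, a keratin of activated basal keratinocytes, rose early and in WT stayed high. Its level in WT solvent was 2573, 2517, 1860 and 1854 CPM and in WT 72 h 4789, 4137, 2770 and 3648 CPM. In mut solvent it was 2274, 2389, 2087 and 2235 CPM and in mut 72 h 2734, 2474, 2604 and 2964 CPM. The treated libraries of both genotypes were all above their solvent libraries at every time. The log2 change in WT was 0.57 ± 0.14 at 6 h (adjusted p = 0.0051), 0.82 ± 0.14 at 24 h (1.64e-05) and 0.79 ± 0.14 at 72 h (2.86e-05). The mut change was 0.53 ± 0.14 at 6 h (0.0221) and 0.53 ± 0.14 at 24 h (0.00634). At 72 h in mut it was 0.26 ± 0.14, which did not pass (adjusted p = 0.182) but passed with the replicate block (0.0125). The mut 6 h call was lost on leaving out any of 6 of its 8 libraries, all but mut solvent 65-1 and mut 6 h 1-2 (adjusted p = 0.05 to 0.105).

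KRT6B, which shares long stretches with KRT6A, was much lower, at a per-length ratio of KRT6A to KRT6B of 31.4 ± 4.36 in WT solvent, and more variable. Its level in WT was 71.0, 72.5, 44.4 and 39.6 CPM with solvent and 207, 120, 55.6 and 62.8 CPM at 72 h, so the groups overlapped. The mut libraries were at 47.5, 47.3, 37.1 and 41.2 CPM with solvent and 53.0, 40.6, 40.7 and 43.2 CPM at 72 h. The log2 change in WT was 0.95 ± 0.32 at 24 h (adjusted p = 0.0132) and 0.80 ± 0.32 at 72 h (0.035). The 24 h call was lost without WT solvent 2-2 or WT 24 h 27-1 (adjusted p = 0.0536 and 0.0953). The 72 h call was lost without WT solvent 27-2 or 2-2 or WT 72 h 27-1 or 2-1 (0.0887 to 0.225), and without WT 72 h 27-1 the change was 0.43. In mut it was 0.67 ± 0.33 at 24 h, which did not pass (0.139) but passed with the replicate block (0.00168), and 0.04 ± 0.34 at 72 h (0.954). At 6 h the changes of 0.59 in WT and 0.58 in mut passed with the block only (adjusted p = 0.00415 and 0.0135).

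KRT17, the type I keratin of stressed and wounded epithelium, was at 1755, 1539, 1075 and 1059 CPM in WT solvent and at 2491, 1760, 1468 and 1832 CPM at 6 h. It was at 3585, 2036, 1613 and 1611 CPM at 24 h and at 2931, 1805, 1237 and 1129 CPM at 72 h. The highest WT mean was thus at 24 h, with series 27-1 above the others at each time. The WT change of 0.65 ± 0.24 at 24 h passed (adjusted p = 0.0231), but not without WT solvent 27-2, WT solvent 2-2 or WT 24 h 27-1 (0.0737 to 0.153). In mut it was 2729, 3125, 2383 and 3097 CPM with solvent, 4140, 4031, 4513 and 4381 CPM at 24 h and 2037, 1985, 2302 and 2987 CPM at 72 h. The mut level thus lay above solvent in every series at 24 h and below it in every series at 72 h, though in 1-2 and 65-2 by a log2 change of -0.050 and -0.052 only. By limma-voom the mut changes did not pass, at 0.60 ± 0.25 for 24 h (adjusted p = 0.0774) and -0.29 ± 0.24 for 72 h (0.413), but with the replicate block both did (0.00026 and 0.0495). With the block the WT change of 0.32 at 72 h (adjusted p = 0.0202) and the changes at 6 h in WT (0.00253) and mut (0.00193) passed too.

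KRT7, the most abundant luminal keratin in these cells, rose in both genotypes. Its level was 3062, 2381, 2874 and 1837 CPM in WT solvent and 4981, 4344, 4063 and 3961 CPM in WT 72 h. Mut cells had 3108, 3497, 2715 and 2901 CPM with solvent and 4128, 4011, 3720 and 4253 CPM at 72 h. Neither genotype's 72 h libraries overlapped its solvent libraries. The log2 change in WT was 0.50 ± 0.13 at 6 h (adjusted p = 0.00762), 0.59 ± 0.13 at 24 h (0.00032) and 0.80 ± 0.13 at 72 h (9.61e-06). The mut change was 0.35 ± 0.13 at 6 h (0.0957, and 0.00376 with the replicate block), 0.35 ± 0.13 at 24 h (0.0484) and 0.40 ± 0.13 at 72 h (0.0239). The WT 6 h call was lost without WT solvent 2-2 (adjusted p = 0.0554) and with clones summed (0.0828). The mut 24 h call was lost without any of 7 of its 8 libraries, all but mut solvent 65-1 (0.064 to 0.135), and the mut 72 h call without mut solvent 1-2 or 65-2 or mut 72 h 1-1 or 65-2 (0.052 to 0.077). With clones summed, the mut changes did not pass either (adjusted p = 0.175 and 0.122). Without series 1-2 they were 0.29 (0.179) and 0.39 (0.077). At 6 h in mut, KRT7 passed on leaving out mut 6 h 1-2 (0.0293).

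KRT8 and KRT18 are the pair of simple epithelium. In WT cells under TGFβ1, KRT18 was called lower at 6 h and 24 h and KRT8 higher at 72 h. Without the replicate block, they were not both called at the same time. KRT8, the type II chain, was at 126, 117, 107 and 86.4 CPM in WT solvent and at 181, 147, 161 and 137 CPM in WT 72 h, with no overlap. The mut libraries were at 199, 217, 145 and 152 CPM with solvent and at 174, 149, 145 and 129 CPM at 72 h. KRT8 rose in WT at 72 h by 0.53 ± 0.16 (adjusted p = 0.00802). At 24 h the WT change was 0.25 ± 0.16 (adjusted p = 0.197), and it passed with TMM scaling (0.43, 0.0344) and with the replicate block (0.049). In mut the change at 72 h was -0.24 ± 0.16 (0.289).

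KRT18, the type I partner, was at 157, 148, 160 and 139 CPM in WT solvent, at 119, 100.0, 135 and 102 CPM at 24 h and at 157, 113, 137 and 105 CPM at 72 h. The mut libraries held 203, 229, 169 and 191 CPM with solvent and 168, 158, 143 and 147 CPM at 72 h, every one below the lowest of solvent. It was lower in WT by 0.36 at 6 h (log2 -0.36 ± 0.13, adjusted p = 0.043) and at 24 h (-0.41 ± 0.13, 0.00698), and in mut at 24 h (-0.49 ± 0.12, 0.00514) and at 72 h (-0.36 ± 0.12, 0.0331). With TMM scaling the WT changes were -0.29 (adjusted p = 0.147) and -0.23 (0.138) and the mut 72 h change -0.28 (0.118), and none of these 3 passed, while mut 24 h did (0.0274). In WT at 72 h it was -0.25 ± 0.12 (adjusted p = 0.0939), passing with the replicate block (0.0113) and without WT 72 h 27-1 (0.0223). The WT 6 h call was lost without any of 6 of its 8 libraries, all but WT 6 h 27-1 and 27-2 (0.0508 to 0.186). The mut 72 h call was lost without mut solvent 1-1, 65-1 or 65-2 or mut 72 h 1-2 or 65-2 (0.0532 to 0.119). Without series 27-2 the WT 6 h change did not pass (0.0622), nor did the mut 72 h change without series 1-2 (0.0565). With clones summed, no KRT18 change passed, at an adjusted p of 0.0578 for WT 24 h and 0.0617 for mut 24 h.

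KRT19, the smallest keratin and a marker of luminal cells, was close to undetected. The 32 libraries held 141 of its reads in all, 0 to 14 each, with 0 in 8 libraries and more than 3 in 17. By group, 19, 37, 9 and 7 reads were counted in WT solvent, 6 h, 24 h and 72 h, and 25, 33, 10 and 1 in mut. A count of 0 allows up to 0.0549 to 0.0756 CPM at these depths. No KRT19 difference passed in the fit across all genes, where the adjusted p was 0.0673 for mut 72 h and 0.0209 with the replicate block, and edgeR and DESeq2 called it lower there.

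JUNB mut cells had more KRT17, KRT8 and KRT18 RNA than WT cells already in solvent, and less KRT6A and KRT6B RNA at 72 h. In solvent, KRT17 was higher in mut by 1.09 ± 0.24 on the log2 scale (adjusted p = 0.00262), KRT8 by 0.70 ± 0.16 (0.00385) and KRT18 by 0.39 ± 0.12 (0.0367). These were 3 of the 10 genes, and none was lower, where 6.38% of all genes tested were called higher and 6.32% lower. For all 3 genes the 4 mut libraries lay above the 4 WT libraries. The KRT18 call was lost on leaving out any of 7 of the 8 libraries, all but mut solvent 1-2 (adjusted p = 0.0514 to 0.119), and with clones summed (0.18). Because clones lie within a genotype, a difference between genotypes and a difference between clones cannot be told apart beyond the 2 clones of each.

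With TGFβ1 at 6 h, KRT5 (0.39 ± 0.10, adjusted p = 0.00386), KRT17 (1.16 ± 0.25, 0.000923), KRT8 (0.91 ± 0.16, 0.000137) and KRT18 (0.71 ± 0.12, 0.000127) were higher in mut and none was lower, against 11.3% and 10% of all genes. At 24 h, KRT5 (0.66 ± 0.10, 5.03e-06) and KRT17 (1.03 ± 0.25, 0.00153) were higher and none was lower, against 24.7% and 12.2%. KRT18 at 24 h was 0.31 ± 0.13 (adjusted p = 0.0523), passing with the replicate block (0.032) and without WT 24 h 27-2 (0.0221). For mut against WT the block was a random effect of the series (correlation 0.251), since a series lies within 1 genotype. In the fits of TGFβ1 changes and of the interaction it was a fixed term. Without series 27-2, KRT18 (0.39, 0.0225), KRT6A (-0.31, 0.0437) and KRT6B (-0.81, 0.0357) also passed at 24 h. At 72 h, KRT5 was higher (0.62 ± 0.10, 8.32e-06), and KRT6A (-0.49 ± 0.14, 0.00714) and KRT6B (-1.12 ± 0.32, 0.00621) were lower, against 26% and 13.2%. All 4 mut libraries lay above all 4 WT libraries for KRT5 in solvent and at each time, although in solvent the difference of 0.26 ± 0.10 did not pass (adjusted p = 0.0804). At 72 h, KRT17 (0.48 ± 0.24, 0.12) passed without WT 72 h 27-1 (0.75, 0.00974), as did KRT18 (0.0194).

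**Figure D3:**
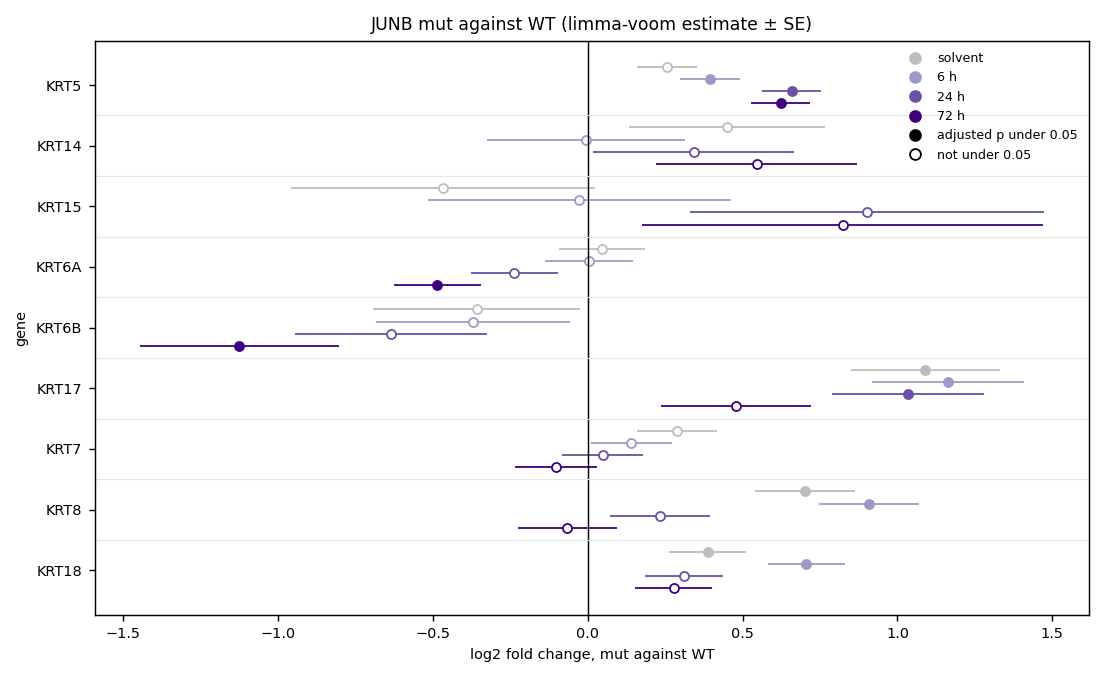
Log2 difference of 9 keratin genes between mut and WT in solvent and at 6 h, 24 h and 72 h of TGFβ1, with error bars of 1 SE, where a filled symbol marks an adjusted p under 0.05. KRT17 lies 1.09 above WT in solvent, and KRT6B lies at -1.12 at 72 h.

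Whether the genotypes responded differently was tested as the change in mut minus the change in WT. At 6 h no member passed by limma-voom, against 0.00673% of all genes higher and 0.0673% lower, none did at an unadjusted p under 0.05, and none did by edgeR or DESeq2. At 24 h no member passed by limma-voom, edgeR or DESeq2, against 7.72% and 1.93%, and 1 (KRT5) was higher at an unadjusted p under 0.05. At 72 h, KRT8 alone passed, with a change of 0.53 in WT and -0.24 in mut (difference -0.77 ± 0.23, adjusted p = 0.026), against 9.4% higher and 2.92% lower. Relative to the median of all genes, which was shifted by 0.10 at 72 h, the KRT8 value was -0.87. It was lost on leaving out WT solvent 2-2, WT 72 h 27-1, mut solvent 1-1 or 65-1 or mut 72 h 65-2 (adjusted p = 0.051 to 0.0661) and with clones summed (0.114).

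With the series as a replicate block, 7 members passed at 72 h, 2 higher and 5 lower, where 17.1% of all genes were called higher and 6.33% lower in that fit. The difference was above 0 for KRT5 (0.37, adjusted p = 0.0141) and KRT15 (1.32, 0.0227), and KRT6A (-0.53, 0.00132), KRT6B (-0.81, 0.0094), KRT17 (-0.61, 0.00795), KRT7 (-0.39, 0.0122) and KRT8 (-0.77, 0.000755) were lower in mut relative to WT. At 24 h, KRT5 (0.40, 0.009), KRT15 (1.43, 0.0106) and KRT8 (-0.47, 0.0326) passed with the block, against 14.1% higher and 4.64% lower. With clones summed, of these KRT6A at 72 h alone passed, and the adjusted p at 72 h was 0.0882 for KRT5, 0.253 for KRT15, 0.105 for KRT6B, 0.206 for KRT17 and 0.372 for KRT7, and at 24 h 0.0932 for KRT5, 0.243 for KRT15 and 0.375 for KRT8. KRT6A at 72 h, -0.53 ± 0.20 without the block (adjusted p = 0.0748), passed with TMM scaling (0.0453), with clones summed (0.0325) and without WT solvent 27-1 (0.0487) or WT 72 h 27-2 (0.0161). KRT5 without the block was at an adjusted p of 0.0573 at 24 h, passing without any of 4 libraries (0.0204 to 0.0469), and of 0.0745 at 72 h, passing without WT solvent 27-2 or mut 72 h 1-2 (0.0248 and 0.0322). Leaving out the whole of series 27-2, KRT5 passed at 24 h (0.42, 0.0459), and KRT5 (0.42, 0.0341), KRT6A (-0.60, 0.0179) and KRT8 passed at 72 h.

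Set beside its own solvent library, each series showed the same split at 72 h. KRT5 changed by -0.93 to -0.60 in the 4 WT series and by -0.50 to -0.23 in the 4 mut series. KRT6A changed by 0.57 to 0.98 in WT and 0.05 to 0.41 in mut, and KRT6B by 0.32 to 1.54 and -0.22 to 0.15. KRT17 changed by 0.09 to 0.74 in WT and -0.66 to -0.05 in mut, and KRT8 by 0.33 to 0.66 and -0.54 to -0.001. For these 5 genes the WT and mut series did not overlap, with KRT5 higher and the other 4 lower in mut, whereas for KRT14, KRT15, KRT7 and KRT18 they did. Of all 14865 genes tested, the 4 mut series lay above the 4 WT series for 17.1% and below them for 6.81%.

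**Figure D4:**
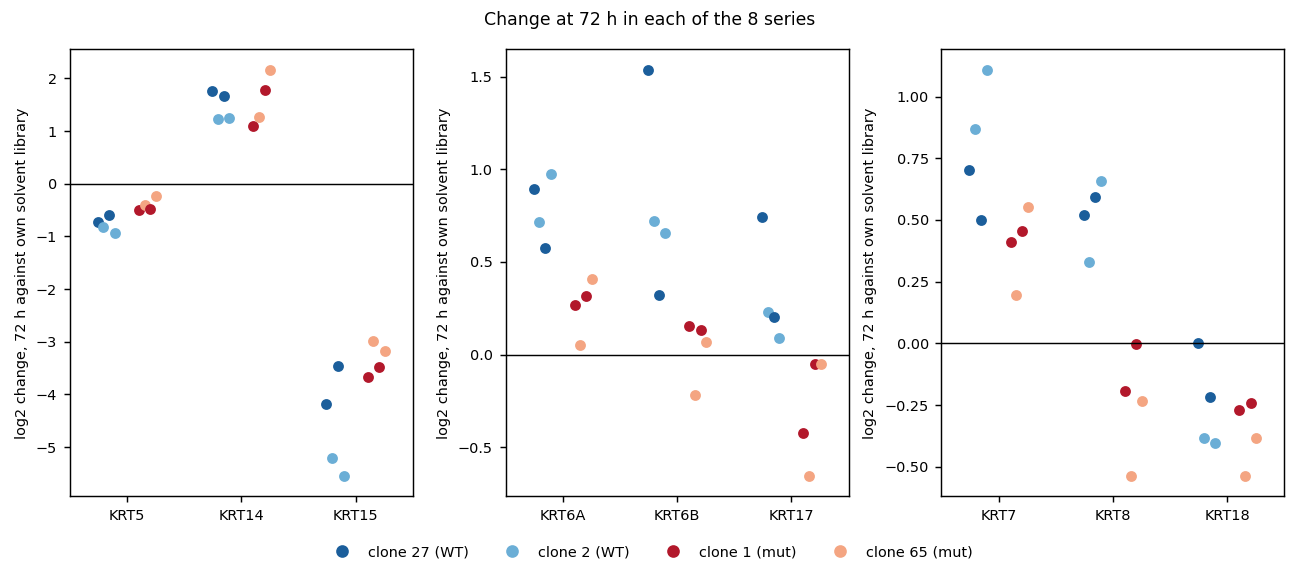
Log2 change of 9 keratin genes after 72 h of TGFβ1 in each of the 8 series, against that series' own solvent library, with 1 point per series coloured by clone. For KRT17 and KRT8 all 4 WT series lie above 0 and all 4 mut series below it. Some mut series hardly differ from 0, KRT8 in 1-2 at -0.001 and KRT17 in 1-2 and 65-2 at -0.050 and -0.052.

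The 10 genes took 1.36 ± 0.168% of all counts in WT solvent and 2.05 ± 0.194% in mut 6 h, the lowest and the highest of the 8 groups. Within the length-scaled sum of the 10, KRT5 made up 41.1 ± 4.29% in WT solvent and 20.4 ± 2.70% in WT 72 h. In mut it made up 38.7 ± 1.81% and 28.4 ± 2.23%. Over the same interval KRT6A went from 20.2 ± 1.28% to 29.5 ± 2.06% in WT and from 16.5 ± 0.597% to 19.2 ± 1.31% in mut. In WT 72 h, KRT6A and KRT7 (24.8 ± 2.63%) thus had larger shares than KRT5. With the longest transcript's length, KRT6A (1662 CPM per kb) and KRT5 (1632) were nearly equal there, and KRT7 (2669) was above both. The basal set as a whole made up 80.9 ± 4.32% in WT solvent and 73.7 ± 2.90% in WT 72 h, and 81.7 ± 0.732% and 77.5 ± 1.63% in mut. By the longest transcript, the basal shares were 74.41% and 63.52% in WT and 75.48% and 69.15% in mut. Shares and ratios are descriptions given without a test.

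**Figure D5:**
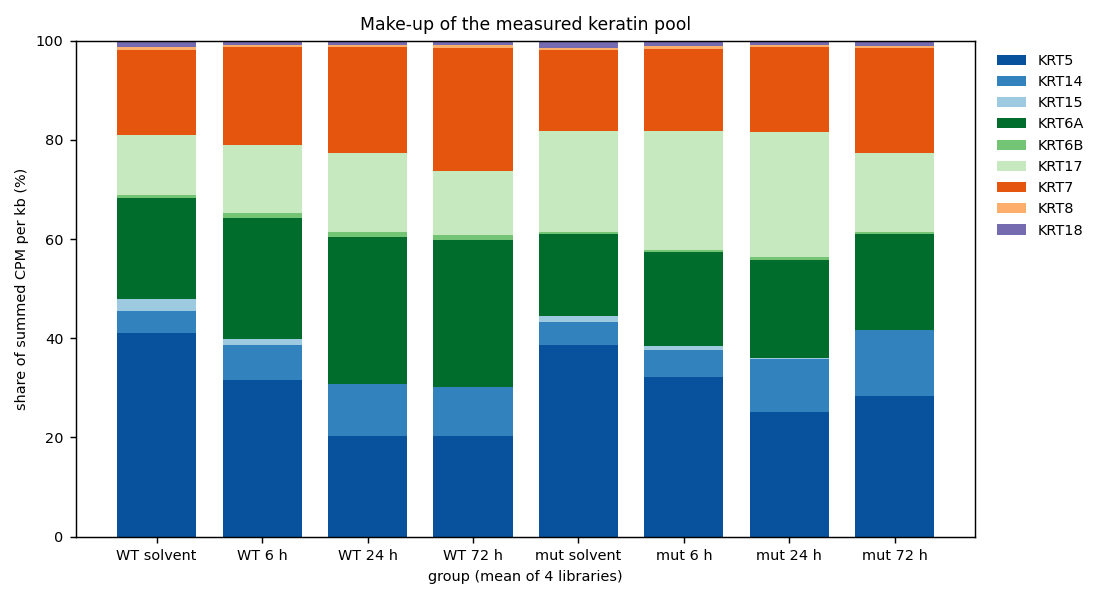
Share of each of 9 keratin genes in the summed CPM per kb of the set, as stacked percentages by group (mean of 4 libraries). The KRT5 share goes from 41.1% in WT solvent to 20.4% in WT 72 h, and from 38.7% to 28.4% in mut.

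The ratios between partners followed from these changes. The per-length ratio of KRT5 to KRT14 was 10.4 ± 3.66 in WT solvent and 2.16 ± 0.729 in WT 72 h, and 8.85 ± 2.03 and 2.27 ± 0.618 in mut. The ratio of KRT14 to KRT15, the type I partners of KRT5, was 1.89 ± 0.544 in WT solvent and 138 ± 71.5 in WT 72 h, and 3.70 ± 1.51 and 115 ± 59.9 in mut. KRT6A to KRT17 was 1.69 ± 0.133 in WT solvent and 0.818 ± 0.0706 in mut solvent, with no overlap between the genotypes, and 2.41 ± 0.675 and 1.21 ± 0.155 at 72 h. KRT8 to KRT18 went from 0.321 ± 0.0403 to 0.548 ± 0.0362 in WT, and was 0.399 ± 0.0379 and 0.432 ± 0.0312 in mut. With the longest transcript's length, the KRT8 to KRT18 ratios were 0.526 and 0.897 in WT and 0.653 and 0.707 in mut. Within the 10 genes, the summed type II chains were 4.02 ± 0.760 times the type I chains in WT solvent and 2.65 ± 0.250 times in mut solvent. Keratins outside the 10 are not in these sums. Among them, KRT81 had a mean of 7512 CPM over the 32 libraries, against 5781 CPM for KRT5, so these ratios do not give the balance of all keratins.

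Clones of 1 genotype differed for some members. KRT18 was at 158 CPM (mean of 2 replications) in clone 27 and 143 CPM in clone 2 in WT solvent, and at 147 and 109 CPM at 72 h. KRT8 in WT 6 h was at 130 CPM in clone 27 and 88.9 CPM in clone 2. KRT7 in WT solvent was at 2968 and 2109 CPM. In each of these the libraries of clone 27 were above those of clone 2. KRT17 in mut 6 h was at 4740 CPM in clone 65 and 3663 CPM in clone 1. These clone values were not tested.

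Across the 32 libraries, which share clone, treatment and run of cultures, Pearson's r of log2 CPM was highest for KRT6A with KRT6B (0.856), KRT5 with KRT15 (0.793) and KRT8 with KRT18 (0.74). It was lowest for KRT7 with KRT15 (-0.619) and for KRT14 with KRT15 (-0.601). The partners KRT5 and KRT14 gave -0.288. Among 9629 genes outside the keratin family, the pattern most like that of KRT5 was that of UNC93B1, a transport protein of endosomal receptors (r = 0.967). EPHB2, an ephrin receptor, was most like KRT14 (0.89) and CYFIP2, a regulator of actin, most like KRT15 (0.943). PPP1R13L was most like KRT6A (0.892) and HSPB1, a small heat shock protein, most like KRT6B (0.893). SERPINA3, a secreted protease inhibitor, was most like KRT17 (0.949), TRIP10 most like KRT7 (0.893), CLIC3 most like KRT8 (0.804) and BAIAP2 most like KRT18 (0.917).

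Among linkers of keratin filaments at junctions, 11 of 12 listed genes were tested. At 72 h in WT 1 was called higher and 5 lower, with a median log2 change of -0.03, where 13.9% of all genes tested were called higher and 38.4% lower and their median was -0.19. The same background holds for the WT counts of the lists that follow, and 7.81% and 16.3% for the mut counts. PPL, the cornified envelope and desmosome linker periplakin, fell by 3.15 (SE 0.42, adjusted p = 4.6e-07), from 152 ± 52.7 to 18.4 ± 10.2 CPM. PKP2, a desmosomal plakophilin, fell by 1.02 (4.23e-10), DST, which holds keratins to hemidesmosomes, fell by 0.91 (8.38e-08), and EVPL fell by 0.55 (0.00925) but not with TMM scaling (0.0595). PLEC, the cytolinker plectin, was the member called higher (0.48, 3.79e-05), and is named after its value was seen. In mut at 72 h, 1 was higher and 4 lower, with PPL at -1.49 ± 0.33 (0.00119) and PKP2 at -1.11 ± 0.08 (6.94e-10).

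Of 14 other intermediate filament genes, 7 were tested, and at 72 h in WT 1 was called higher and 2 lower, with a median of -0.08. VIM, the filament of mesenchymal cells, rose to 1479 ± 149 CPM (0.58 ± 0.12, adjusted p = 0.000217). LMNB1 (-0.69, 0.00135) and LMNB2 (-0.31, 0.00985), nuclear lamins, were lower, and LMNB2 was not called with TMM scaling (0.246). In mut, 2 were called higher and none lower by limma-voom, with VIM at 0.65 ± 0.12 (0.000223).

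Of 20 epithelial transcription factors, 18 were tested, and at 72 h in WT 1 was called higher and 10 lower, with a median of -0.39. SNAI2, a repressor of epithelial genes, rose from 102 ± 16.6 to 283 ± 38.5 CPM (1.48 ± 0.15, adjusted p = 5.65e-09). EHF, an ETS factor of epithelia, fell by 4.09 (SE 0.94, 0.000637), from 39.1 ± 22.2 to 2.66 ± 2.74 CPM. GRHL3 fell by 2.65 (1.11e-06) and GRHL1 by 1.35 (0.0221), both grainyhead-like factors of epithelial identity. In mut, 1 was higher and 8 were lower, with SNAI2 at 1.47 ± 0.15 (4.76e-08) and EHF at -3.78 ± 0.66 (9.99e-05).

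Of 45 other keratin genes, 29 were in the table and 17 were tested, and at 72 h in WT 2 were called higher and 7 lower, with a median of -0.38. KRT6C, the near copy of KRT6A, rose from 73.8 ± 15.2 to 131 ± 35.2 CPM (0.81 ± 0.16, adjusted p = 0.000159), and KRT34, a hair keratin, rose from 0.228 ± 0.0981 to 1.59 ± 1.18 CPM (adjusted p = 0.00374). KRT10, the keratin of suprabasal epidermis, fell by 0.95 (0.000713), from 65.3 ± 20.9 to 32.4 ± 2.77 CPM. KRT13 fell by 3.62 (0.0491), from 16.7 ± 19.2 to 1.80 ± 2.73 CPM, and did not pass with TMM scaling (0.0673). KRT4, its partner, was at 1.45 ± 1.33 CPM in WT solvent and 0.0868 ± 0.0307 at 72 h (adjusted p = 0.0104). KRT23 (0.0145), KRT78 (0.00496), KRT222 (0.00358) and KRT12 (0.0234) were also called lower in WT, each from under 2 CPM in WT solvent, and KRT12 was near the limit of 3 counts. In mut, no other keratin was called higher and 3 were called lower.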

How the data were processed

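RNA of 32 MCF10A cultures was measured by RNA-seq (paired ends of 150 bp). The authors trimmed reads with Trimmomatic, aligned them with STAR to GRCh38 and deposited STAR gene counts. Versions and the strand setting are not given in the sources used here. No column of the table was left out, and rows were named with GENCODE release 44, which named 17763 of 17788. Counts were divided by the library total for CPM, and by exon length per kb only to compare genes. Differences were fitted with limma-voom (limma 3.58.1, edgeR 4.0.16, R 4.3.3) over 8 groups without further covariates, scaled by library totals. The filterByExpr filter (minimum count 10, minimum total 15) left 14865 genes, over which p-values were adjusted (Benjamini-Hochberg, two-sided). There were 13 comparisons with 24 residual degrees of freedom. The fit was tested on simulated data. A floor of 3 counts covers counting error only, and p-values measure the spread between these cultures, of 2 clones per genotype.

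Series numbers pair samples, because a series is the same clone at each time. Deviations from group means correlated at a mean r of 0.303 within a series (48 pairs, 0.0283 to 0.673), 0.0184 between replications of a clone and -0.154 between clones. Counts of any 2 libraries of a group differed by more than sampling noise (chi-square at least 10.5 times its degrees of freedom). The members, gene lists and tests were chosen with earlier results of these data known. Named beyond the members are the gene most like each member, up to 4 genes of largest change per list among those called in WT at 72 h, and every other keratin called there. Alternatives were TMM scaling, edgeR's quasi-likelihood test, DESeq2 1.42.0, other filters, groups fitted alone, clones summed, leaving out libraries or series, a fold minimum and the replicate block. Genes not in the table were not analysed here.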

Additional observations from a re-analysis of the deposited data

Results flagged for a closer look

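In 72 groups of 4 libraries looked at, 8 groups for each of 9 genes, 2 held a single library far from the other 3 by Dixon's ratio at its 95% critical value, and chance gives such a library in about 1 of 20 groups. KRT5 in WT solvent was 5234 CPM in series 27-2, the lowest of its group (ratio 0.849). KRT18 in mut 24 h was 158.8 CPM in series 1-2, the highest of its group (ratio 0.908). The change of KRT8 at 72 h differed between genotypes by -0.77 (adjusted p = 0.026, limma-voom). The change of KRT17 at 72 h was above 0 in all 4 WT series and below 0 in all 4 mut series, and differed by -0.61 (adjusted p = 0.258, and 0.00795 with the replicate block). Mut series 1-2 and 65-2 were close to 0, at -0.050 and -0.052.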

How the results depend on the processing

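No value that passed the test in either fit reversed its direction under any alternative. Of 1152 gene results on leaving out 1 library, 1084 kept their side of the threshold, 54 lost it and 14 gained it, and 54 that did not pass in either fit changed sign. Uncalled values also changed sign under TMM (4 of 117), edgeR (5), DESeq2 (5), clones summed (1), without series 27-2 (2) and without series 1-2 (3). Counts of members called are given next, and the causes of their shifts were not tested.

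Leaving out 1 library, the count was 2 to 4 in WT at 6 h (4 with all), 6 to 8 at 24 h (8) and 6 to 8 at 72 h (7), 0 to 2 in mut at 6 h (1), 5 to 6 at 24 h (6) and 3 to 5 at 72 h (5). For mut against WT it was 2 to 3 in solvent (3), 4 to 4 at 6 h (4), 2 to 3 at 24 h (2) and 3 to 5 at 72 h (3), and for the interaction 0 to 0 at 6 h (0), 0 to 1 at 24 h (0) and 0 to 2 at 72 h (1). With a log2 change of at least 1 required, the WT counts were 1, 2 and 2, the mut counts 0, 2 and 2, the mut against WT counts 1, 1, 1 and 1, and the interaction count at 72 h was 0. Groups compared alone gave 1 in WT at 6 h and 3 in mut at 6 h. Clones summed gave 1 in WT at 6 h and 4 for mut against WT at 24 h. DESeq2 gave 2 in mut at 6 h. Without series 27-2, the counts were 5 for mut against WT at 24 h and 1 and 3 for the interaction at 24 h and 72 h. Without series 1-2, 3 passed in mut at 72 h. For the interaction at 72 h, TMM, edgeR and DESeq2 gave 2 each.

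With the series as a replicate block, 7 members passed in WT at 6 h, 9 at 24 h and 9 at 72 h. In mut, 5 passed at 6 h, 8 at 24 h and 8 at 72 h. For mut against WT at 24 h 3 passed, and for the interaction 3 and 7 at 24 h and 72 h. Shares of all genes in that fit were not taken for WT at 24 h and 72 h, mut at 24 h or mut against WT. The block lost no call. Depth limits KRT19 alone of the 10.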
